A study of Mus musculus with 10 samples.

Results

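The insulin-like growth factor (IGF) family was measured in whole back skin of C57BL/6J mice, aged 9 weeks at the start of the experiment, on 10 arrays with 1 array per sample. The family was taken as 10 genes: the ligands Igf1 and Igf2, the receptors Igf1r and Igf2r, and the binding protein genes Igfbp2 to Igfbp7. Each gene was read from the probe set that carries its symbol, and each of the 10 had 1 probe set, out of 19505 named genes on the array. In the expanded samples a silicon expander lay beneath the back skin and was enlarged step by step with PBS, with 1 array at each of days 0, 7, 14 and 21 after full injection. In the non-expanded samples an expander had been implanted but received no PBS, with 1 array at the same 4 days. The other arrays came from skin of wildtype mice with no expander, 1 in anagen, the growth stage of the hair cycle, and 1 in telogen, the resting stage. The labels do not say whether an array held 1 animal or several, so all p-values measure only the spread between these arrays, which within an arm lie at different days. The 10 genes were chosen by symbol, and the family was selected on known values of 2 of them, the differences of Igf2 and Igfbp2 between expanded and non-expanded skin. For these 2 genes the values from expanded or non-expanded skin set against another group are given as a description, with no test.

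IGF-1 and IGF-2 are small secreted proteins related to insulin. They act through the IGF-1 receptor, a tyrosine kinase that switches on the PI3 kinase and Akt pathway and the MAP kinase pathway, while the IGF-2 receptor takes IGF-2 into the cell for breakdown in the lysosome and carries enzymes tagged with mannose 6-phosphate. Most IGF in tissue is held by binding proteins, which protect it, keep it from the receptor, and release it when proteases cut them. In skin, IGF-1 from dermal cells acts on keratinocytes and hair follicles, and in muscle both ligands promote growth and regeneration. IGFBP-7 differs from the other binding proteins in its low affinity for IGFs.

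Values are log2 signals as deposited, on which a difference of 1 is a 2-fold change in signal. Array medians lay between 6.27 and 6.45, and the 23 background probe sets had a median of 5.46. All 10 genes lay above that background on every array and passed the filter on low levels. Igfbp1, a further binding protein that is made mainly in liver, read below background on all 10 arrays. Signals over 16, beyond what a 16-bit scanner records on this scale, occurred in 586 probe sets, among them Igf1 and Igfbp7, and how the authors' processing reached them is not given in the sources used here. The 10 basal keratinocyte genes averaged 13.15 to 13.45 in expanded skin, against 12.29 to 13.05 in non-expanded skin and 12.43 to 12.75 in skin without surgery, and 9 of the 10 had a higher value in expanded than in non-expanded skin, with 0 passing. All 10 upper epidermis genes tested had a higher value there too, with 0 passing, though their means overlapped, at 12.74 to 14.09 in expanded and 11.92 to 13.54 in non-expanded skin. Adult muscle fibre genes averaged 12.09 to 15.95 over the arrays, so the samples also held muscle. The list of developing muscle genes stood higher in expanded skin with no overlap, at 9.82 to 10.88 against 7.57 to 9.08 in non-expanded skin and 7.48 to 7.63 in skin without surgery. Of its 14 genes 9 were tested, 8 of them with a higher value in expanded than in non-expanded skin and 0 passing, while Myod1, Myf5, Mymx, Pax7 and Chrng read below background on all arrays. Of all 13653 genes tested, 52.5% had a positive value between the arms, with a median of 0.02. Against no surgery the share was 50.6% in expanded and 50.7% in non-expanded skin. These shares apply beside the counts of all gene lists here. The part of the keratinocyte, epidermis and muscle lists in the differences of Igf2, Igfbp2 and the other members was not tested. In whole tissue a larger number of cells of a type and more RNA per cell cannot be told apart.

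The promoter windows of the 3 genes on which the results turn are shown here, since Igf2 and Igfbp2 were the members that stood apart between the arms and Igf1 was the tested member whose expanded values passed against skin without surgery. Each runs from 250 bases before to 50 bases after a transcript start, 5′ to 3′ on the gene's strand, from the RefSeq annotation of mm10. Capitals mark matches on either strand to the Sp1 box (GGGCGG), the TEAD site (GGAATG), the AP-1 site (TGANTCA), the E-box (CANNTG) or the TATA box (TATAAA). The Igf2 window (chr7:142657447-142657746, minus strand) is the most downstream of the 4 listed for the gene, the Igfbp2 window (chr1:72824230-72824529, plus strand) is the upstream one of 2, and Igf1 has 1 window (chr10:87860861-87861160, plus strand).
Igf2: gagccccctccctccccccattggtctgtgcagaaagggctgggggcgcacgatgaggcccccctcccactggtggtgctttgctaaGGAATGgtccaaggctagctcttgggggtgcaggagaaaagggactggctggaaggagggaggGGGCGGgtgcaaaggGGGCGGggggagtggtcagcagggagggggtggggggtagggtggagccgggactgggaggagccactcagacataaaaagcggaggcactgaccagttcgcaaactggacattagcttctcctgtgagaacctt
Igfbp2: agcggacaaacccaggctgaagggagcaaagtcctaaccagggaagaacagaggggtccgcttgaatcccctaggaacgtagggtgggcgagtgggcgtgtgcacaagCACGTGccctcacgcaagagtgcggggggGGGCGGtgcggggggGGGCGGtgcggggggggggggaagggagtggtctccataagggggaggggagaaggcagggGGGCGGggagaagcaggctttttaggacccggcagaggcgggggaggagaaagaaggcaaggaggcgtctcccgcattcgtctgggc
Igf1: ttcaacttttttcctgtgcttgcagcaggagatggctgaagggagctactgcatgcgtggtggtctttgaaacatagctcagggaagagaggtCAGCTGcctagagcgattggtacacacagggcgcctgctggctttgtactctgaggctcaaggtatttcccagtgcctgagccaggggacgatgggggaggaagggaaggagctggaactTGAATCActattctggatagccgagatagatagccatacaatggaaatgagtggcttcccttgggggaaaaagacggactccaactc
The Igf2 window held 2 Sp1 boxes and 1 TEAD site, the Igfbp2 window held 3 Sp1 boxes and 1 E-box, and the Igf1 window held 1 AP-1 site and 1 E-box. All 10 genes matched, with 14 windows in all. The TEAD site was found in 4 of the 14 windows, 3 of Igf2 and 1 of Igfbp5, against 14.7% of all 32851 promoter windows. The Sp1 box was found in 6 of 14, against 35.7% of all windows, the AP-1 site in 2 (Igf1 and the downstream window of Igfbp2), against 7.81%, the E-box in 10, against 72.3%, and the TATA box in 2 (Igfbp4 and Igfbp6), against 13.6%. These matches describe letters in a window and not bound sites.

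Igf2, the growth factor of the embryo that is imprinted and mostly silent in adult tissue (chromosome 7, 142650768 to 142666816, mm10), stood above non-expanded skin in expanded skin on every day. At days 0, 7, 14 and 21 it read 10.89, 11.08, 12.98 and 11.19 in expanded skin, against 7.88, 10.85, 7.55 and 8.61 in non-expanded skin. Skin without surgery read 8.30 in anagen and 7.06 in telogen. The arms did not overlap, but the non-expanded array of day 7 came within 0.23 of the expanded array of that day. The arm means were 11.54 ± 0.97 with expansion and 8.72 ± 1.48 without it (SD, n = 4 arrays each), a fitted difference of 2.81 ± 0.75 (SE). Leaving out 1 day at a time, it ranged from 1.94 without day 14 to 3.67 without day 7. In order, the level ran from expanded through non-expanded to anagen and telogen skin, and non-expanded skin lay on either side of the anagen array and above the telogen array. Non-expanded minus no surgery was 1.04 ± 0.89 for Igf2, or 1.66 against telogen alone and 0.43 against anagen alone.

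The genes whose levels followed Igf2 most closely over the 10 arrays were Fbln2, a matrix protein of the fibulin family (Pearson r = 0.964), Dhx32 (r = 0.962), Rab2a (r = 0.955), Lmna, which encodes the nuclear lamins A and C (r = 0.953), and Adipor1, a receptor for adiponectin (r = 0.953). These are descriptions over arrays that share the same groups. This ranking and those of the other members left out family members, small RNA genes and genes with predicted symbols. Fbln2 averaged 10.85 in expanded, 9.15 in non-expanded and 7.91 in skin without surgery. The non-expanded array of day 7, where Igf2 was high for its arm, also had the highest mean of the 11 fibroblast genes. That mean was 16.14, against 14.73 to 15.22 on the other non-expanded arrays. In expanded skin Igf2 was highest at day 14, where the fibroblast mean was 15.62, against 15.68 at day 0. The part of fibroblasts in the Igf2 values was not tested. The array has a probe set over the noncoding RNA gene H19, the imprinted neighbour of Igf2, under the symbol of Mir675, the microRNA within it. This Mir675 probe set read 14.42, 13.81, 13.37 and 14.52 in expanded skin, against 13.15, 14.71, 12.28 and 13.15 in non-expanded skin at days 0, 7, 14 and 21. The groups overlapped, with a difference of 0.70 ± 0.42 for Mir675 (limma adjusted p = 0.676).

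Of the 10 measured members of a list of imprinted genes often expressed with Igf2 in embryos, 6 were higher and 4 lower in expanded than in non-expanded skin, with a median of 0.16 against 0.02 over all 13653 genes tested, and 0 passed. Slc38a4, an amino acid transporter, differed by -1.21 ± 0.24 (adjusted p = 0.303), and the transcription factor genes Plagl1 and Peg3 by 0.66 ± 0.34 and 0.57 ± 0.38 (adjusted p = 0.635 and 0.706). In non-expanded against no-surgery skin 4 were higher and 6 lower, with a median of -0.25 and 0 passing. There Ndn, which encodes necdin, differed by 1.82 ± 0.39 (adjusted p = 0.0844), Sgce, a sarcoglycan gene, by 0.87 ± 0.46 (adjusted p = 0.385) and Phlda2 by -1.38 ± 0.92 (adjusted p = 0.502). Of 4 listed proteins that bind Igf2 mRNA, Igf2bp3 alone passed the filter on low levels, and it differed by -0.35 ± 0.25 between the arms (adjusted p = 0.717).

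Igf1, the main growth factor of the family in adult tissue (chromosome 10, 87858265 to 87937047), was higher in expanded skin than in skin without surgery, and its non-expanded values lay close to the expanded ones. On the 4 days in order it read 16.26, 15.10, 15.38 and 15.67 in expanded skin and 14.58, 15.96, 14.98 and 14.63 in non-expanded skin. Skin without surgery read 12.80 in anagen and 13.28 in telogen, below all 8 expander arrays. Expanded minus no surgery was 2.57 ± 0.45, and this difference passed over all genes tested (limma adjusted p = 0.0444), as did 0.476% of the genes (0.447% higher). It no longer passed under 6 of 11 alternative settings, with adjusted p up to 0.168, while the difference stayed between 2.33 and 2.80. These settings include leaving out the telogen or the anagen array, which leaves 1 array without surgery. Non-expanded minus no surgery was 2.00 ± 0.45 and did not pass (adjusted p = 0.0931). It was 2.24 against the anagen array alone and 1.76 against the telogen array alone. A single array without surgery has no spread of its own, so no p-value is given there. The comparisons of expanded and of non-expanded skin with no surgery use the same 2 arrays without surgery. Between the arms Igf1 overlapped and differed by 0.57 ± 0.42 (adjusted p = 0.725), with expanded skin higher on 3 of 4 days and lower on day 7.

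**Figure D1:**
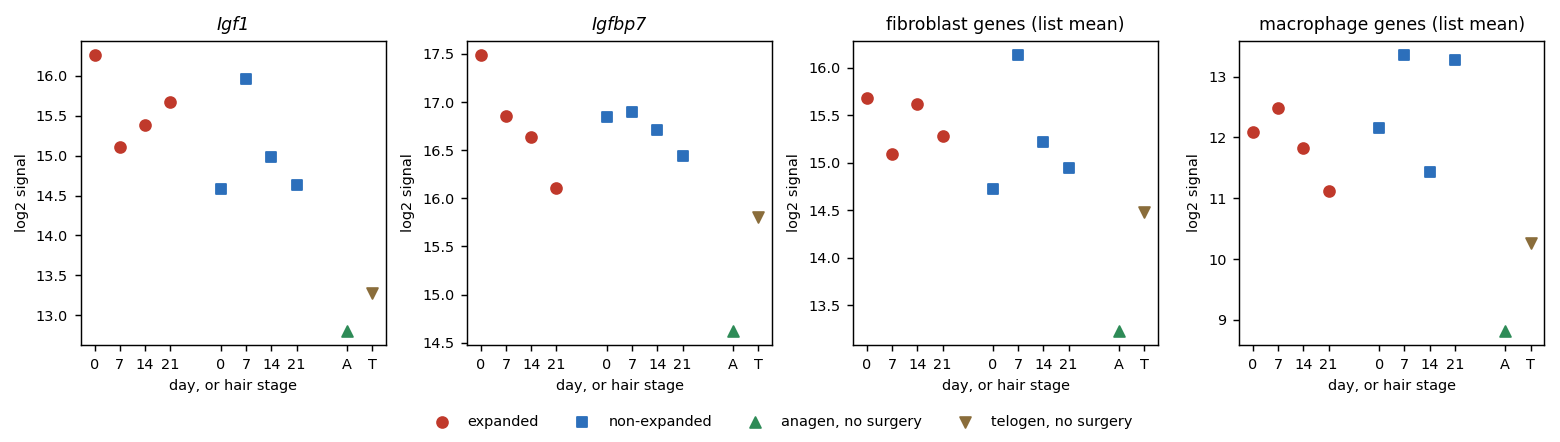
Log2 signal of Igf1, of Igfbp7 and of the means of the fibroblast and macrophage gene lists on each array, with the day after full injection on the horizontal axis for expanded and non-expanded skin and A and T for anagen and telogen skin without surgery; each point is 1 array and each panel has its own axis, which does not start at 0. The lowest expander array of each panel lies above the telogen array, and anagen is lowest throughout.

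Values of fibroblast and macrophage genes also stood higher over an expander than without surgery. All 11 fibroblast genes tested had higher values in expanded than in no-surgery skin, with a median of 1.72, against 0.01 over all genes, and 0 passed. Their mean level was 15.09 to 15.68 in expanded, 14.73 to 16.14 in non-expanded and 13.22 to 14.48 in skin without surgery. Of 11 macrophage genes, 10 had higher values, with a median of 2.69, and 0 passed. The macrophage mean was 11.12 to 12.48 in expanded, 11.43 to 13.36 in non-expanded and 8.81 to 10.27 in skin without surgery. Between the arms macrophage genes ran lower in expanded skin, with 8 of 11 lower and a median of -0.38, while Igf1 had a positive value. The expanded array of day 7 had the highest macrophage mean of its arm and the lowest Igf1. In non-expanded skin the day 7 array had the highest macrophage mean, 13.36, and also the highest Igf1, 15.96. No gene of either list lay below background on all arrays. The part of these cells in the Igf1 difference was not tested. The genes most like Igf1 over the 10 arrays were Lix1l (r = 0.978), the phospholipid binding protein gene Anxa5 (r = 0.962), the endothelial transcription factor gene Erg (r = 0.961), the complement gene C2 (r = 0.959) and Pdgfrb, a growth factor receptor of mesenchymal and mural cells (r = 0.957). Pdgfrb averaged 12.27 in expanded, 11.23 in non-expanded and 9.26 in skin without surgery.

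The receptors varied least. Igf1r, the signalling receptor (chromosome 7, 67952257 to 68233668), read 9.75, 9.26, 9.66 and 9.47 in expanded and 9.04, 9.30, 9.31 and 9.50 in non-expanded skin over the 4 days, with 9.30 in anagen and 9.44 in telogen. All 10 arrays lay within 0.71 of each other, and no order of the groups stood out from that spread. Its differences were 0.25 ± 0.24 between the arms (adjusted p = 0.778), 0.17 ± 0.26 between expanded and no-surgery skin (adjusted p = 0.806) and -0.08 ± 0.26 between non-expanded and no-surgery skin (adjusted p = 0.918). Igf2r, the clearing receptor (chromosome 17, 12682406 to 12769706), read 10.96, 10.26, 10.58 and 10.90 in expanded skin and 9.78, 10.91, 10.19 and 10.27 in non-expanded skin, against 11.14 in anagen and 10.12 in telogen. Its highest array was anagen and its lowest the non-expanded array of day 0, and the groups overlapped. Between the arms Igf2r differed by 0.39 ± 0.33 (adjusted p = 0.751). Of the 4 genes for mannose 6-phosphate tagging and its smaller receptor, 2 were higher and 2 lower in expanded than in non-expanded skin, with a median of -0.06, and 0 passed. Nagpa, Gnptg and Gnptab, enzymes of the tagging, differed by -0.45 ± 0.28, -0.13 ± 0.23 and 0.10 ± 0.25. In non-expanded against no-surgery skin all 4 had higher values, with a median of 0.55 and 0 passing. There Nagpa differed by 0.85 ± 0.38 (adjusted p = 0.312), M6pr, the smaller receptor, by 0.67 ± 0.31 (adjusted p = 0.325) and Gnptab by 0.43 ± 0.40 (adjusted p = 0.652).

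Igfbp2, a binding protein of embryonic and growing tissue (chromosome 1, 72824480 to 72852474), was the member with the widest range over the arrays, 6.00, and stood apart between the arms on every day. It read 13.41, 14.49, 13.97 and 14.05 in expanded skin, against 11.71, 11.005, 11.23 and 9.31 in non-expanded skin at days 0, 7, 14 and 21. Skin without surgery read 8.49 in anagen and 10.33 in telogen. Every expanded array lay above every other array, while the non-expanded array of day 21 lay between telogen and anagen. The arm means were 13.98 ± 0.44 with expansion and 10.81 ± 1.05 without it (SD, n = 4 each), a difference of 3.17 ± 0.48, which ranged from 2.64 without day 21 to 3.66 without day 0. Expanded minus no surgery was 4.58 ± 0.68, or 3.66 against telogen alone and 5.49 against anagen alone. Non-expanded minus no surgery was 1.41 ± 0.68 for Igfbp2, or 0.49 against telogen alone and 2.32 against anagen alone.

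The gap in Igfbp2 was 1.70, 3.49, 2.74 and 4.75 at days 0, 7, 14 and 21. Along a straight line over 21 days, the expanded arrays of Igfbp2 changed by 0.42 ± 0.68 and the non-expanded arrays by -2.09 ± 0.68. The difference of these slopes was 2.52 ± 0.96 and is given with no test, since it uses the values that selected the family. Without day 21 the slope in non-expanded skin was -0.72. The genes most like Igfbp2 over the 10 arrays were Il17rc, a receptor chain for interleukin 17 (r = 0.961), the keratin gene Krt79 (r = 0.933), Myh3, the myosin heavy chain of embryonic muscle (r = 0.922), Ms4a2, a chain of the mast cell IgE receptor (r = 0.92), and F2r, a thrombin receptor (r = 0.918). Krt79 averaged 16.26 in expanded, 15.11 in non-expanded and 14.36 in skin without surgery, and F2r averaged 12.18, 9.69 and 8.76 in the same groups. Myh3 averaged 13.16, 5.91 and 4.57.

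**Figure D2:**
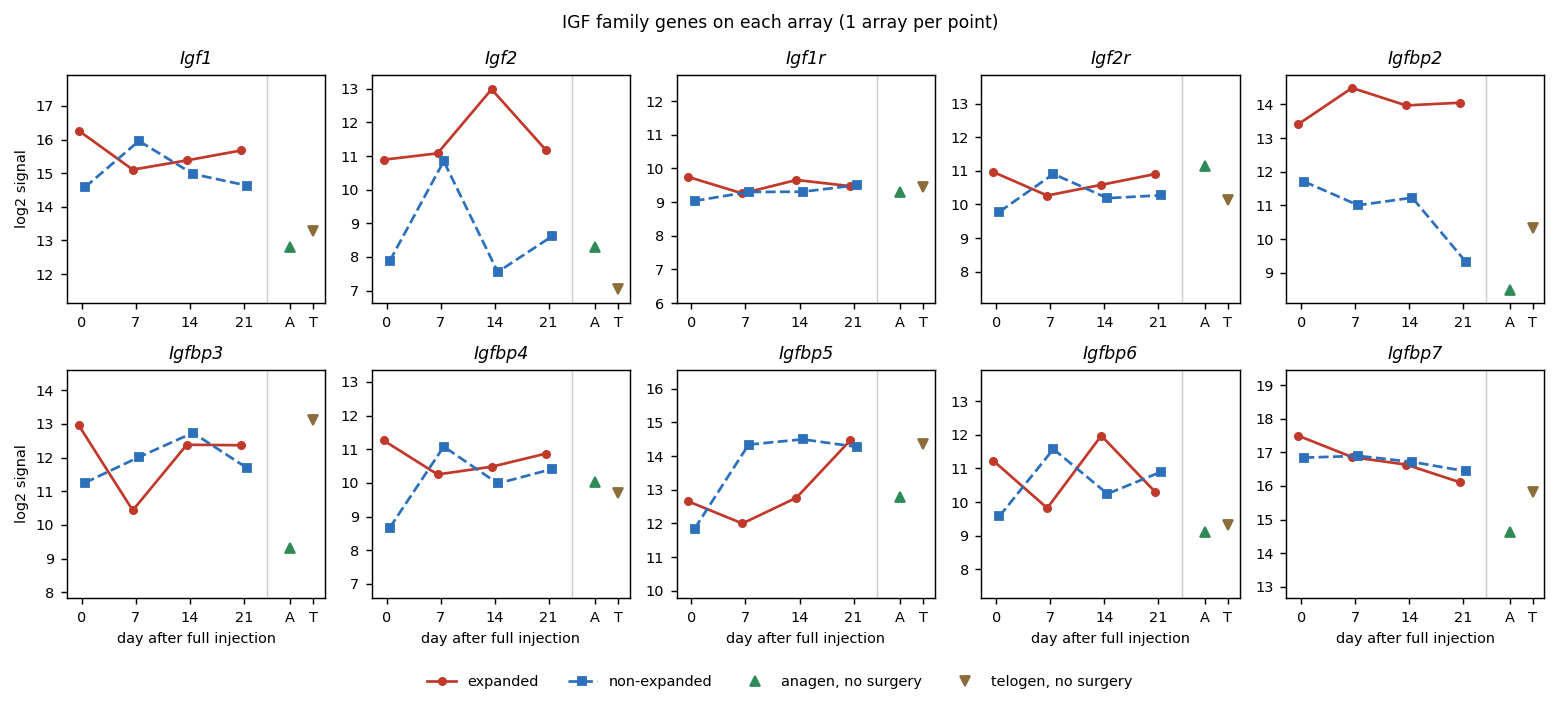
Log2 signal of the 10 IGF family genes on each array, with the day after full injection on the horizontal axis and the anagen (A) and telogen (T) arrays at the right of each panel; each point is 1 array, lines join the days of an arm, and every panel spans the same height around its own values. Igf2 and Igfbp2 are the panels where all 4 expanded arrays lie above all 4 non-expanded arrays, and Igf1r spans only 0.71.

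Igfbp5, the gene next to Igfbp2 on chromosome 1 (72858065 to 72874865, a gap of 5590 bases), showed another pattern. Its protein binds matrix and is known from muscle differentiation. Igfbp5 read 12.65, 11.998, 12.76 and 14.47 in expanded skin, against 11.84, 14.34, 14.50 and 14.28 in non-expanded skin at days 0, 7, 14 and 21, and 12.79 in anagen and 14.37 in telogen. Expanded skin was lower on days 7 and 14, by 2.35 and 1.74, and the arrays of the arms lay 0.81 apart at day 0 and 0.20 apart at day 21. The day 0 array was the lowest of non-expanded skin, while the day 21 array was the highest of expanded skin. Over all days Igfbp5 differed by -0.77 ± 0.55 (adjusted p = 0.72), the only member with a negative fitted value between the arms. Its slopes over 21 days were 1.87 ± 0.98 in expanded and 2.24 ± 0.98 in non-expanded skin (adjusted p = 1.0 and 0.991), and they differed by -0.37 ± 1.39. Leaving out a day, the expanded slope ranged from 0.17 without day 21 to 3.71 without day 0, and the non-expanded slope turned to -0.10 without day 0. Muscle fibre genes averaged 12.09 and 12.36 in expanded skin at days 7 and 14, against 15.02 and 15.28 in non-expanded skin, and 14.70 in expanded skin at day 21. They averaged 12.22 in anagen and 15.95 in telogen, and the non-expanded array of day 21 had a mean of 15.69. The day 0 arrays did not follow Igfbp5 in this way. Their muscle fibre means, 14.45 with expansion and 14.59 without it, lay close to that of expanded skin at day 21. Igfbp5 nevertheless read 12.65 and 11.84 at day 0, against 14.47 on that day 21 array. The part of muscle fibre genes in the Igfbp5 values was not tested. Over the 10 arrays Igfbp2 and Igfbp5 had the lowest correlation of any member pair (r = -0.328). Ccdc9b (r = 0.948), the secreted protease inhibitor gene Wfdc1 (r = 0.945), Klhl33 (r = 0.942), Tas2r102 (r = 0.93) and Oat (r = 0.927), an enzyme of ornithine metabolism, were most like Igfbp5.

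Igfbp3, the main carrier of IGF in blood (chromosome 11, 7206086 to 7215498), had the widest gap of the family between hair stages. It read 9.31 in anagen and 13.12 in telogen, a difference of -3.81 between 1 array a side. Igfbp3 read 12.96, 10.43, 12.38 and 12.37 in expanded skin and 11.25, 12.02, 12.74 and 11.69 in non-expanded skin at days 0, 7, 14 and 21. Telogen was above and anagen below all 8 expander arrays, and the lowest of these was the expanded array of day 7. On that array the 14 hair shaft genes averaged 11.26, against 4.77 to 6.10 on the other expanded arrays, 4.67 to 7.32 in non-expanded skin, 15.71 in anagen and 6.22 in telogen. The part of hair growth in the Igfbp3 values was not tested. Between the arms Igfbp3 differed by 0.11 ± 0.52 (adjusted p = 0.966), and the sign turned without day 0 or without day 21. The genes most like it were Fbxl17 (r = 0.955), the potassium channel subunit gene Kcnmb1 (r = 0.94), Spopl (r = 0.939), Nek9 (r = 0.937) and Slc22a4 (r = 0.934). Igfbp3 lies 3539 bases from Igfbp1.

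Igfbp4, which restrains IGF until it is cut by the protease PAPP-A (chromosome 11, 99040005 to 99052655), read 11.26, 10.25, 10.48 and 10.87 in expanded skin and 8.67, 11.08, 9.98 and 10.41 in non-expanded skin at days 0, 7, 14 and 21. Anagen read 10.04 and telogen 9.71. All 4 expanded arrays of Igfbp4 lay above both arrays without surgery, with a difference of 0.84 ± 0.57 (adjusted p = 0.513), while non-expanded skin lay on either side of them. Between the arms it differed by 0.68 ± 0.52 (adjusted p = 0.734), and without day 0 the difference was 0.04. Pde2a, a phosphodiesterase gene (r = 0.978), Ski, a repressor of TGF-beta signalling (r = 0.964), Smim1 (r = 0.954), the zinc transporter gene Slc39a13 (r = 0.951) and Smad4, the shared mediator of TGF-beta and BMP signalling (r = 0.941), were most like Igfbp4.

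Igfbp6, a binding protein that prefers IGF-2 (chromosome 15, 102144186 to 102149512), read 11.23, 9.82, 11.97 and 10.30 in expanded skin and 9.58, 11.58, 10.24 and 10.90 in non-expanded skin, against 9.10 in anagen and 9.31 in telogen. The arms overlapped and crossed from day to day, with expanded skin higher on days 0 and 14 and lower on days 7 and 21. All 8 expander arrays lay above both arrays without surgery. Expanded minus no surgery was 1.63 ± 0.64 (adjusted p = 0.244) and non-expanded minus no surgery 1.37 ± 0.64 (adjusted p = 0.335). Most like Igfbp6 were Ssc5d (r = 0.963), Plekhg5 (r = 0.937), Kat8 (r = 0.936), the surface proteoglycan gene Sdc2 (r = 0.933) and the laminin chain gene Lamb2 (r = 0.931).

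Igfbp7, a matrix protein of vessels and fibroblasts (chromosome 5, 77349240 to 77408045), read 17.49, 16.86, 16.63 and 16.11 in expanded skin and 16.84, 16.89, 16.71 and 16.43 in non-expanded skin at days 0, 7, 14 and 21. Anagen read 14.62 and telogen 15.81, again below all 8 expander arrays. Expanded minus no surgery was 1.56 ± 0.43 (adjusted p = 0.114) and non-expanded minus no surgery 1.51 ± 0.43 (adjusted p = 0.145). Against the anagen array alone these were 2.16 and 2.10, and against the telogen array alone 0.96 and 0.91. A single array without surgery has no spread of its own, so no p-value is given there. Within expanded skin each array was lower than the one at the time before it, a slope of -1.32 ± 0.39 over 21 days (unadjusted p = 0.0103, adjusted p = 1.0). In non-expanded skin the slope was -0.42 ± 0.39 and the slopes differed by -0.90 ± 0.55 (adjusted p = 0.999). Between the arms Igfbp7 differed by 0.05 ± 0.25 (adjusted p = 0.966). Its nearest genes in pattern were Vps4a (r = 0.98), the lysosomal membrane protein gene Cd63 (r = 0.977), the kinase gene Prkcd (r = 0.961), Clec12a, a receptor of myeloid cells (r = 0.959), and Ap3s1 (r = 0.958). Clec12a averaged 11.04 in expanded, 11.18 in non-expanded and 7.83 in skin without surgery. Blood endothelial genes had higher values in 9 of 9 cases in expanded against no-surgery skin, with a median of 1.04 and 0 passing, and averaged 8.30 to 9.43 in expanded, 8.37 to 9.52 in non-expanded and 7.40 to 8.37 in skin without surgery.

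Among the 8 members other than Igf2 and Igfbp2, whose differences selected the family, 7 had a positive fitted value between expanded and non-expanded skin, with a median of 0.25, against 52.5% of all genes and a median of 0.02. No gene on the array passed in this comparison (0 of 13653, limma; 1202 at an unadjusted p under 0.05). Expanded skin was above non-expanded skin without overlap for 2 members, Igf2 and Igfbp2, as for 2.97% of all genes, and nothing is read from this count since those genes brought the family up. At day 0 all 8 were higher in expanded skin, with a median of 1.42, and 5 were at least 2-fold higher, against 9.49% of all genes. At day 7 none of the 8 was higher and their median was -0.84. None was at least 2-fold higher that day, against 8.45% of all genes, and Igfbp3, Igfbp5 and Igfbp6 were at least 2-fold lower, against 9.43%. At day 14 their median was 0.37, with 5 of 8 higher, of which Igfbp6 was at least 2-fold higher, against 11.4% of all genes, while Igfbp5 was at least 2-fold lower, against 8.85%. At day 21 their median was 0.33, with 5 of 8 higher, and Igf1 was at least 2-fold higher, against 6.69%. None of the 8 was at least 2-fold lower at day 0 or at day 21, against 6.18% and 6.13% of all genes. Medians of all genes were 0.05, -0.06, 0.04 and 0.05 at the 4 days. The fibroblast mean was 15.68 in expanded and 14.73 in non-expanded skin at day 0, and 15.09 and 16.14 at day 7. On the day 7 arrays hair shaft genes averaged 11.26 with expansion and 4.67 without it, and muscle fibre genes 12.09 with expansion and 15.02 without it. The part of these lists in the day by day values was not tested.

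**Figure D3:**
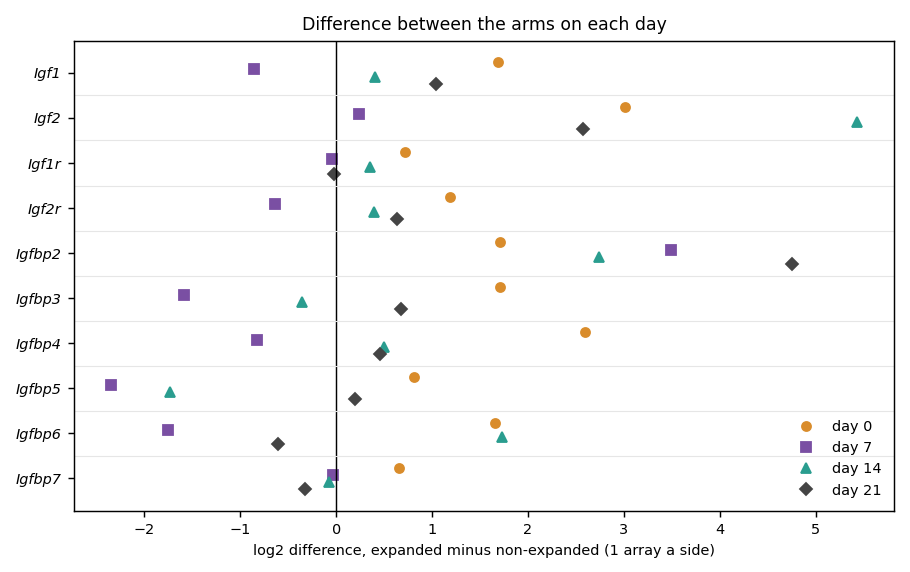
Log2 difference between expanded and non-expanded skin (horizontal axis, expanded minus non-expanded) for each IGF family gene, 1 point per day from 1 array a side, with no error. All 10 day 0 points lie right of 0, and at day 7 only Igf2 and Igfbp2 do.

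Against skin without surgery, 7 of the same 8 members had a positive value in expanded skin, with a median of 0.83, against 50.6% of all genes. In non-expanded skin 8 of all 10 members had a positive value, with a median of 0.88, against 50.7%. These 10 include Igf2 and Igfbp2, whose non-expanded values had a part in selecting the family. This median and that of expanded skin therefore cover unlike sets of members. Of the 8 without Igf2 and Igfbp2, Igf1, Igfbp6 and Igfbp7 differed by 2.00, 1.37 and 1.51 in non-expanded minus no-surgery skin. There Igfbp3, Igfbp4 and Igfbp5 differed by 0.71, 0.16 and 0.16, and Igf1r and Igf2r by -0.08 and -0.345. The median of all genes was 0.01 in each comparison. These comparisons share the arrays without surgery. Igf1, Igfbp6 and Igfbp7 were the 3 members with all 8 expander arrays above both no-surgery arrays, as was the case for 8.1% of all genes, and no member had all 8 below, against 4.15%. All 4 expanded arrays lay above both no-surgery arrays for Igf1, Igfbp4, Igfbp6 and Igfbp7, 4 of the 8, against 14.0% of all genes, and also for Igf2 and Igfbp2. All 4 non-expanded arrays did so for 3 of all 10 members, Igf1, Igfbp6 and Igfbp7, against 11.5%. In non-expanded against no-surgery skin no gene passed (0 of 13653, limma; 2144 at an unadjusted p under 0.05). Igf1 and Igfbp7 had an unadjusted p under 0.05 there, both higher, as did 9.42% of all genes.

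**Figure D4:**
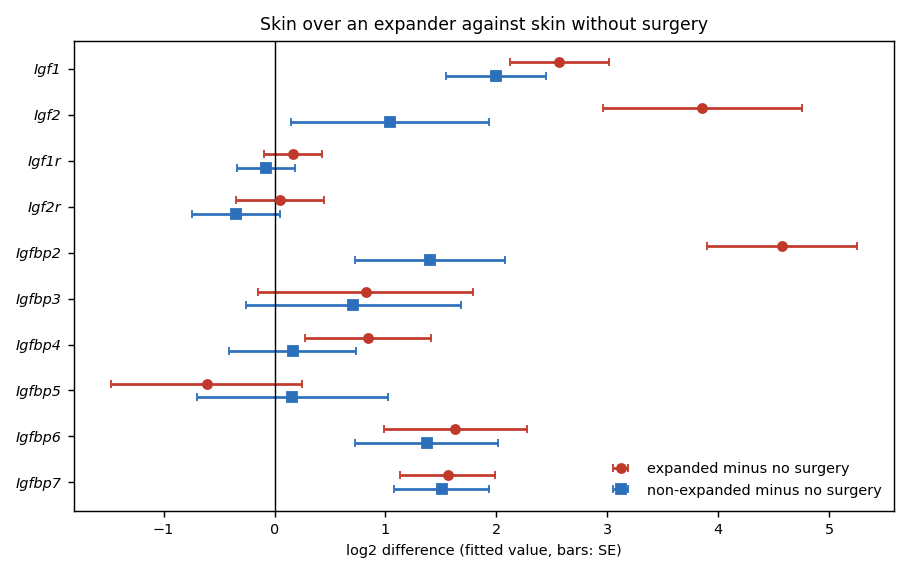
Fitted log2 difference from skin without surgery (horizontal axis, bars show the SE) in the expanded and the non-expanded arm for each IGF family gene, from 4, 4 and 2 arrays. Igf1 stands at 2.57 in expanded and 2.00 in non-expanded skin, while Igf2 and Igfbp2 stand at 3.86 and 4.58 in expanded and at 1.04 and 1.41 in non-expanded skin.

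Between hair stages, each with 1 array and no test, anagen was at least 2-fold above telogen for Igf2 and Igf2r, by 1.23 and 1.02, as for 23.5% of all genes. It was at least 2-fold below telogen for Igfbp2, Igfbp3, Igfbp5 and Igfbp7, by -1.84, -3.81, -1.58 and -1.19, as for 20.4%. Igf1 differed by -0.48, Igf1r by -0.14, Igfbp4 by 0.33 and Igfbp6 by -0.21. Muscle fibre genes averaged 12.22 in anagen and 15.95 in telogen, and the part of tissue content in these values was not tested.

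Among the other genes that govern IGF availability, 5 of the 7 tested were higher in expanded than in non-expanded skin, with a median of 0.56, and 0 passed. Of all genes 52.5% were higher, with a median of 0.02. Pappa, which encodes the protease that frees IGF from IGFBP-4, read 6.79, 8.04, 7.64 and 6.86 in expanded skin, against 5.87, 6.17, 6.11 and 5.70 in non-expanded skin at days 0, 7, 14 and 21, and 6.99 in anagen and 7.83 in telogen. The arms of Pappa did not overlap and differed by 1.37 ± 0.25 (adjusted p = 0.303), and non-expanded skin was the lowest group, at -1.45 ± 0.41 against no surgery (adjusted p = 0.142). Adam12, a protease that cuts IGFBP-3 and IGFBP-5, averaged 8.42 ± 0.96 with expansion and 6.99 ± 1.45 without it (SD, n = 4 each) and differed by 1.43 ± 0.35 (adjusted p = 0.358). Stc2, an inhibitor of PAPP-A, differed by 0.56 ± 0.31 (adjusted p = 0.658). In non-expanded against no-surgery skin 6 of the 7 were higher, with a median of 0.73 and 0 passing. Adam9, a related protease, differed there by 1.69 ± 0.46 (adjusted p = 0.132) and Adam12 by 1.79 ± 0.92 (adjusted p = 0.373). The level of the insulin receptor gene Insr differed by -0.16 ± 0.29 between the arms (adjusted p = 0.888) and that of its relative Insrr by -0.33 ± 0.21 (adjusted p = 0.695).

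Of 21 tested adaptors and kinases downstream of Igf1r, 16 were higher and 5 lower in expanded than in non-expanded skin. Their median was 0.34, and 0 passed. Over all genes 52.5% were higher, with a median of 0.02. Grb14, an adaptor that restrains insulin receptor signalling, averaged 6.66 ± 0.68 with expansion and 8.60 ± 0.66 without it (SD, n = 4 each), a difference of -1.95 ± 0.37 (adjusted p = 0.303). Akt2 and Rptor, of the Akt and mTOR arm, differed by 0.67 ± 0.21 and 0.95 ± 0.33 (adjusted p = 0.472 and 0.502). Akt1 averaged 12.43 ± 0.38 in expanded, 11.73 ± 0.56 in non-expanded (SD, n = 4 each) and 10.46 in skin without surgery, with expanded minus no surgery at 1.96 ± 0.49 (adjusted p = 0.0901) and non-expanded minus no surgery at 1.27 ± 0.49 (adjusted p = 0.255). Pik3cb, a catalytic chain of PI3 kinase, and the adaptor gene Gab1 differed by -1.09 ± 0.37 and -0.79 ± 0.33 between non-expanded and no-surgery skin (adjusted p = 0.209 and 0.29), where 12 of the 21 were higher, with a median of 0.04. Of 6 genes of the growth hormone axis, which drives Igf1 in liver, 5 were higher in expanded than in non-expanded skin, with a median of 0.22 and 0 passing. The feedback inhibitors Cish and Socs2 and the receptor Ghr differed by 0.46 ± 0.28, 0.54 ± 0.37 and 0.33 ± 0.33 (adjusted p = 0.688, 0.71 and 0.789). Between non-expanded and no-surgery skin 4 of the 6 were higher, with a median of 0.20, and Socs2, the kinase gene Jak2 and Cish differed by 0.85 ± 0.44, 0.76 ± 0.41 and -0.48 ± 0.31 (adjusted p = 0.378, 0.4 and 0.481). Cish averaged 5.63 in expanded, 5.16 in non-expanded and 5.65 in no-surgery skin, near the background median of 5.46.

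Of 9 Foxo factors and genes switched on by them, 3 were higher and 6 lower between the arms, with a median of -0.29 and 0 passing. Sesn3, a stress response gene, differed by 1.08 ± 0.26, Pdk4 by -1.62 ± 0.44 and the muscle ubiquitin ligase gene Fbxo32 by -1.04 ± 0.47 (adjusted p = 0.368, 0.397 and 0.593). Between non-expanded and no-surgery skin 4 were higher and 5 lower, with a median of -0.29 and 0 passing, and Sesn3, the muscle ubiquitin ligase gene Trim63 and Foxo1 differed by -1.88 ± 0.57, 2.35 ± 1.11 and -0.66 ± 0.32 (adjusted p = 0.164, 0.336 and 0.354). The 18 muscle fibre genes, from a tissue that also expresses Pdk4, Fbxo32 and Trim63, had lower values in 17 cases, with a median of -1.74 and 0 passing, and averaged 12.09 to 14.70 in expanded and 14.59 to 15.69 in non-expanded skin. Their part in these values was not tested.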

How the data were processed

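Whole-skin RNA was prepared with the Affymetrix WT PLUS kit, per the labels' protocols. The deposited values, 1 for each of 28846 probe sets on 10 arrays, were read as log2 signals. The base was inferred from their range (1.87 to 19.88), and background correction, summarisation and normalization are not given in the sources used here. The submitters' processing notes name mm10. A single symbol was given for 19572 probe sets, all matched to RefSeq by gene identifier, and 9274 were unnamed. The highest-mean probe set was kept per gene, and genes under the 30th percentile of mean level (4.86) were removed, leaving 13653. No array column was left unmapped.

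Differences were fitted on all these genes with limma 3.58.1 (lmFit, eBayes, two-sided, Benjamini-Hochberg at 0.05) in R 4.3.3. The comparison of the arms had the day as a block (3 residual degrees of freedom), slopes had 4, and the comparisons with skin without surgery, in a fit of all 10 arrays, had 7. The code was tested on simulated data. The arrays were paired by day only because the labels give shared time points. Deviations of same-day arrays correlated at -0.133, -0.171, -0.104 and 0.358 for days 0, 7, 14 and 21. Same-day arrays were therefore not alike on days 0, 7 and 14. With 4 pairs an exact permutation test cannot go below 0.125. Comparisons of 1 array a side have no test. So few arrays set the precision.

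The members and gene lists were chosen with earlier results of these data known. All members are named. For each member other than Igf1r and Igf2r, the 5 genes of highest Pearson correlation with it are named too. That ranking was limited to protein-coding, long noncoding and antisense RNA genes past the level filter. It left out the members, small RNA genes and genes with predicted or clone-type symbols. Of each pathway list, up to 3 genes with the smallest p between the arms and up to 3 between non-expanded and no-surgery skin are named. Values of Akt1 in expanded against no-surgery skin were added after they were seen. Alternatives were quantile normalization, other level filters, the mean over probe sets, a prior following the mean level, no block, and leaving out days or the telogen or anagen array.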

Additional observations from a re-analysis of the deposited data

Results flagged for a closer look

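Within each arm of 4 arrays, the highest and lowest array of each of the 10 genes was compared with the others by its gap relative to the range, in 20 groups, of which chance alone would mark about 1 in 20. In expanded skin the day 14 array of Igf2, at 12.98, lay far above the other days (10.89 to 11.19). In non-expanded skin the day 0 array of Igfbp5, at 11.84, lay far below the other days (14.28 to 14.50).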

How the results depend on the processing

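The count of genes passing between the arms was 0, with 2 without the replicate block by day and 0 to 1 leaving out a day. Between expanded and no-surgery skin it was 65, with 33 without a filter on low values, 0 to 37 leaving out a day, 1850 without the telogen array and 62 without the anagen array. Between non-expanded and no-surgery skin it was 0, with 2645 without the telogen array and 0 without the anagen array. The cause of these counts was not tested. Without the block the fitted differences of the members between the arms were unchanged by construction, and no call on a member changed.

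Of 359 recomputed member values with a test, 326 kept direction and side of the threshold. Of 42 with no test (Igf2 and Igfbp2 in expanded skin against another group), 36 kept direction and moved by less than their SE. The 359 include slopes of Igfbp2, and Igf2 and Igfbp2 in non-expanded against no-surgery skin, whose tests are not given above. Level filters, the other prior and no block leave fitted values unchanged by construction, as does the probe set mean, with 1 probe set per member. Direction could not turn under these settings. Igf1 in expanded against no-surgery skin no longer passed under 6 settings. In 3 a value that had not passed came to pass. Among them were Igf1 and Igfbp7 in non-expanded against no-surgery skin without the telogen array. That setting leaves 1 array without surgery, so nothing is read from it. Signs turned in 24, none past the threshold, and the cause was not tested. Leaving out a day, differences between the arms ranged from -0.42 to 0.68 for Igfbp3, -0.24 to 0.93 for Igfbp6 and -0.15 to 0.18 for Igfbp7. Slopes ranged from -0.66 to 0.84 for Igfbp2 in expanded skin and from -0.10 to 3.99 for Igfbp5 in non-expanded skin, and the slope difference of Igfbp5 from -3.82 to 3.82. Non-expanded minus no surgery ranged from -0.15 to 0.0032 for Igf1r, -0.19 to 0.62 for Igfbp4 and -0.10 to 0.79 for Igfbp5, and expanded minus no surgery from -0.048 to 0.19 for Igf2r. Without the anagen array, non-expanded minus no surgery turned to 0.17 for Igf2r, -1.20 for Igfbp3 and -0.63 for Igfbp5, and expanded minus no surgery to -1.09 for Igfbp3. Without the telogen array, non-expanded minus no surgery was -0.0013 for Igfbp4, and expanded minus no surgery was -0.46 for Igf2r and 0.18 for Igfbp5. Quantile normalization turned expanded minus no surgery of Igf2r to -0.11.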
